A study of Arabidopsis thaliana with 18 samples.

Results

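The xyloglucan endotransglucosylase/hydrolase (XTH) genes of Arabidopsis thaliana were followed in whole seedlings after 5 PLETHORA (PLT) transcription factors had been made active, each in its own line. The family has 33 numbered members, XTH1 to XTH33, which were taken by their loci, and all 33 had a probe set of their own among the 21430 on the arrays. Xyloglucan is a hemicellulose that coats cellulose in the primary wall and links its microfibrils. XTH enzymes cut a xyloglucan chain and join the new end to another chain, and some members pass it to water instead and so shorten the chain. They act when a wall is loosened or rebuilt as cells enlarge, and many members are known from elongating roots and stems.

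The 5 lines expressed PLT1, PLT3, PLT4, PLT5 or PLT7 under the constitutive 35S promoter, joined to the hormone-binding domain of the glucocorticoid receptor (GR), which made the fusion protein throughout the seedling and let it reach the nucleus once dexamethasone (dex) was given. PLT proteins are AP2-domain factors of the root and shoot meristems, and PLT4 is also called BABY BOOM. Plants grown for 4 days went into flasks of liquid medium with about 50 seedlings each, were shaken overnight and had 10 µM dex for 6 h. There were 3 libraries labelled PLT1, 2 of PLT3, and 3 each of PLT4, PLT5 and PLT7. The 4 mock libraries came from the PLT4 line with the solvent DMSO and without dex. All groups, mock included, thus carried a PLT-GR transgene. Only PLT4 had a mock of its own line, so in the comparisons of PLT1, PLT3, PLT5 and PLT7 the line changed along with the treatment. Dex without a fusion was not among the groups. The labels call the libraries biological replicates and describe 3 mock flasks for the 4 mock libraries. A line's name stands here for its dex-treated seedlings.

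The array medians lay between 5.70 and 5.80 on the log2 scale, and the number of arrays limits the precision. The library labelled PLT1 replicate 3 had the PLT1 probe set at 3.50, against 11.00 and 11.08 in PLT1 replicates 1 and 2, and had the PLT2 probe set at 10.28 instead. Its difference between the 3′ and 5′ actin probe sets, a sign of RNA quality, was 2.67, against 1.08 to 1.64 in the 17 others. It was left out, so PLT1 stands for 2 libraries, and values with all 18 libraries are given where they change a call. PLT5 replicate 3 had the PLT2 probe set at 6.07, against 4.06 and 3.95 in PLT5 replicates 1 and 2, and PLT7 replicate 1 had the PLT3 probe set at 6.49, against 4.63 and 4.39 in PLT7 replicates 2 and 3. Both were kept. Mock replicate 4 differed from the other mock libraries in clock genes, with CCA1 at 5.88, against 7.37, 7.62 and 7.22 in mock replicates 1 to 3 and 4.15 to 6.00 in the 13 dex libraries used. Values without it are given where they change a call.

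Most XTH genes fell, and a few rose. In the mean of the 5 lines against mock, 19 of the 33 members fell and 4 rose, where 24.2% of all probe sets fell and 25.9% rose. Rises and falls are called where the p of limma, adjusted over all 21430 probe sets, is under 0.05. The median change of the 33 members was -0.54 on the log2 scale, against 0.01 over all probe sets. Of the members, 11 were lower by 2-fold or more and 2 were higher by as much. In 10 members every dex library lay below every mock library, and in 2 every one lay above, against 9.99% and 11.2% of all probe sets. Those 2 were XTH9 and XTH28. With all 18 libraries each of the 33 members kept its call. In whole seedlings, fewer cells of a type and less RNA per cell cannot be told apart.

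The lines differed in how many members passed. PLT1 had 7 members higher and 19 lower, where 27.8% of all probe sets were higher and 23% lower, and with all 18 libraries the counts were 2 and 20. PLT3 had 3 higher and 18 lower, against 15.9% and 15.7% of all probe sets. PLT4, the comparison within 1 line, had 2 higher and 18 lower, against 20.5% and 19%. PLT5 had 3 higher and 14 lower, against 14.2% and 15.1%. PLT7 had 3 higher and 19 lower, against 25.2% and 22.4%. With all 18 libraries, 15 were lower in PLT3, 16 in PLT4, 13 in PLT5 and 19 in PLT7, and the counts higher in these lines did not change. In each line the share of members that rose, 6.06% to 21.2%, was below that of all probe sets, and the share that fell, 42.4% to 57.6%, was above it. The median change over the 33 members was -0.69 in PLT1, -0.42 in PLT3, -0.43 in PLT4, -0.19 in PLT5 and -0.71 in PLT7, against medians of all probe sets between -0.02 and 0.03. The 5 comparisons share the mock libraries.

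**Figure D1:**
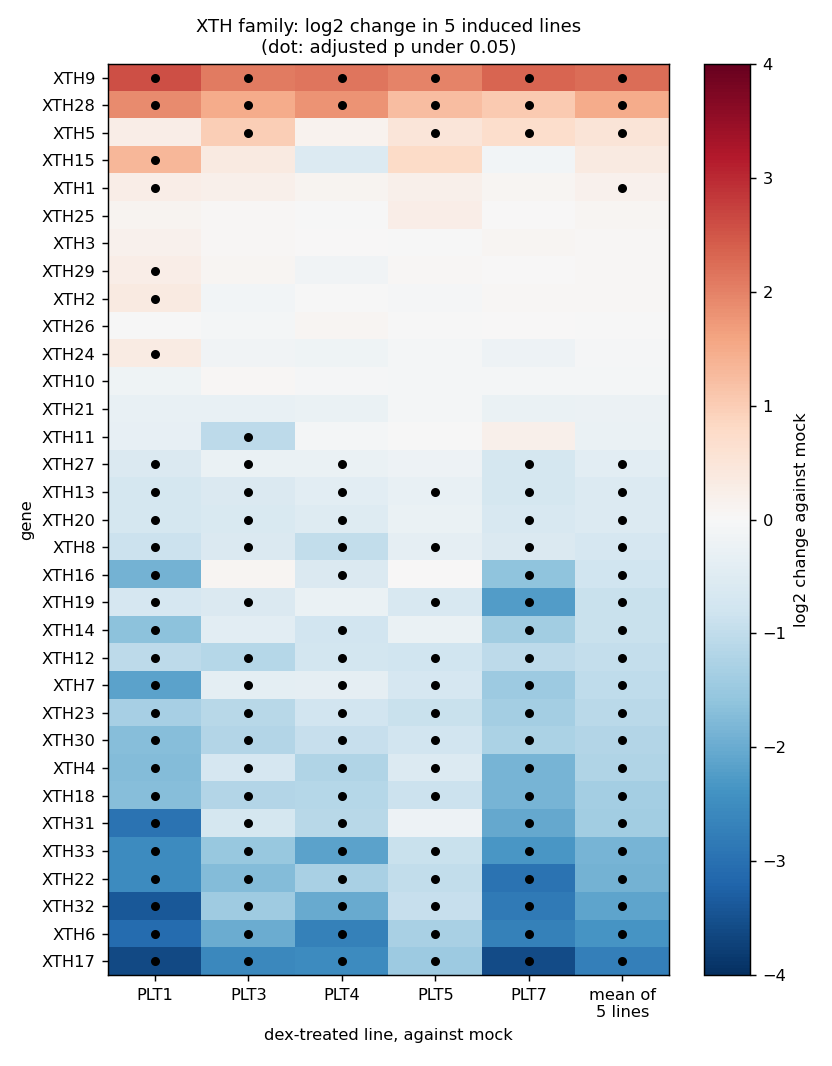
Log2 change of each of the 33 XTH members (down the page) in the 5 dex-treated lines and in their mean, each against mock, from the fit of 17 libraries. Blue is lower and red higher than mock, and a black dot marks an adjusted p under 0.05. XTH9 and XTH28 are red with a dot in every column, and XTH17, XTH6 and XTH32 are the deepest blue in the mean.

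XTH9 (AT4G03210), an enzyme known from the shoot apex, rose most. Its log2 values were 12.43 and 12.26 in PLT1, 11.84 and 11.81 in PLT3, 11.88, 11.85 and 12.01 in PLT4, 11.91, 11.71 and 11.65 in PLT5 and 12.12, 12.14 and 12.01 in PLT7, against 9.68, 9.63, 9.90 and 9.85 in mock. Every dex library lay above every mock library, and the library left out lay among the dex libraries with 11.82. The mean of the lines was 2.22 ± 0.06 (SE) above mock, or 4.67-fold (adjusted p = 4.18e-14). The changes by line were 2.58 in PLT1, 2.06 in PLT3, 2.15 in PLT4, 1.99 in PLT5 and 2.33 in PLT7. The lines thus lay within a narrow band, with PLT1 above PLT5 by 0.59 ± 0.10 (adjusted p = 0.000213, and 0.0236 with all 18 libraries).

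XTH28 (AT1G14720), known for a part in the growth of stamen filaments, came next. It stood at 10.01 and 10.01 in PLT1, 9.66 and 9.58 in PLT3, 9.95, 9.85 and 9.93 in PLT4, 9.45, 9.25 and 9.31 in PLT5 and 9.06, 9.19 and 9.23 in PLT7, against 8.18, 7.97, 7.98 and 8.35 in mock. Again no dex library reached down to mock, and the mean change was 1.49 ± 0.07, or 2.8-fold (adjusted p = 6.02e-12). PLT1 and PLT4 were highest and PLT7 was lowest. PLT4 exceeded PLT7 by 0.75 ± 0.09 (adjusted p = 1.74e-05), and PLT1 and PLT4 differed by 0.11 ± 0.11 (adjusted p = 0.532). PLT5 minus PLT7 was 0.18 ± 0.09 for XTH28 (adjusted p = 0.204) and -0.34 ± 0.09 for XTH9 (adjusted p = 0.0122, and 0.0828 with all 18 libraries).

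XTH5 (AT5G13870), known from roots, rose in some lines and not in others. Its values were 5.52 and 5.58 in PLT1, 6.27 and 6.32 in PLT3, 5.51, 5.29 and 5.49 in PLT4, 5.85, 5.87 and 5.66 in PLT5 and 6.00, 5.87 and 6.12 in PLT7, against 5.69, 5.35, 4.98 and 5.18 in mock. The mock libraries spread widely, and those of PLT1 and PLT4 fell inside their range. PLT3 was 0.99 ± 0.14 above mock (adjusted p = 3.19e-05), PLT7 0.70 ± 0.12 (adjusted p = 0.000134) and PLT5 0.50 ± 0.12 (adjusted p = 0.00541). PLT1 was at 0.25 ± 0.14 (adjusted p = 0.153, and 0.00961 without mock replicate 1) and PLT4 at 0.13 ± 0.12 (adjusted p = 0.45). The difference of PLT3 over PLT4 was itself called, with 0.86 ± 0.15 (adjusted p = 0.00291). The mean of the lines was 0.52 ± 0.09 (adjusted p = 0.000149).

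XTH1 (AT4G13080) was the weakest riser. Its values ran between 3.44 and 3.76 in the 13 dex libraries, against 3.46, 3.67, 3.26 and 3.46 in mock. These are values near the background of the arrays, where differences are compressed, and the groups overlapped. The mean change was 0.17 ± 0.06 (adjusted p = 0.0294), and it lost its call without mock replicate 1 (0.0588), without mock replicate 3 (0.175), without mock replicate 4 (0.0591) and without PLT3 replicate 2 (0.0522).

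**Figure D2:**
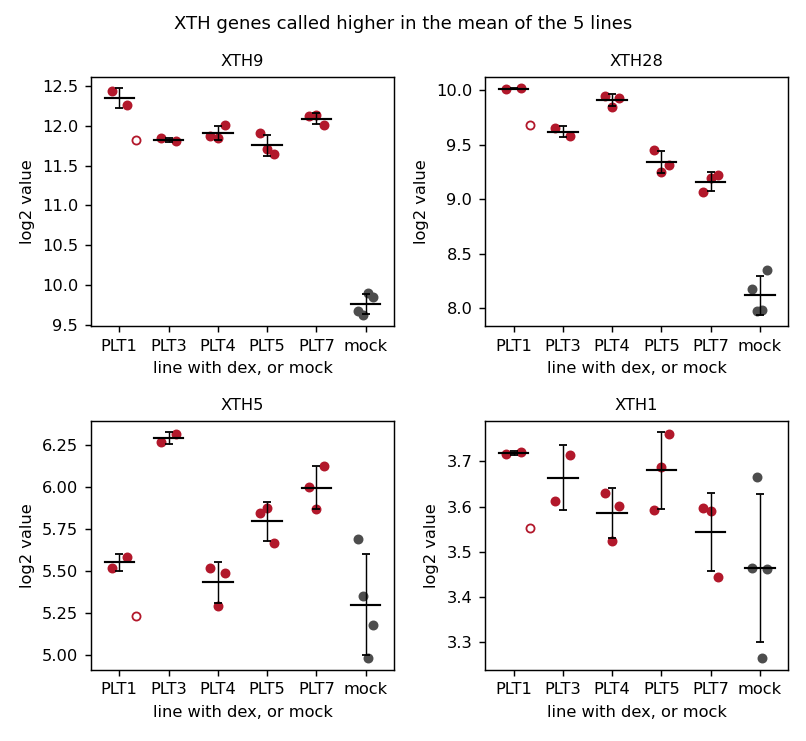
Log2 value of the 4 XTH genes called higher in the mean of the 5 lines, in every library, with the dex-treated lines left and mock right in each panel. Filled points are the libraries used, bars their mean and whiskers the SD, and the open circle is the library labelled PLT1 replicate 3. The dex libraries of XTH9 lie between 11.65 and 12.43, those of mock between 9.63 and 9.90, while XTH1 and XTH5 overlap.

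PLT1 had rises that the other lines did not show at the same threshold. XTH2, XTH15, XTH24 and XTH29 were called higher there along with XTH1, XTH9 and XTH28, and of these 7 only XTH9 and XTH28 were called with all 18 libraries. XTH1 was 0.25 ± 0.10 above mock in PLT1 (adjusted p = 0.0344), and 0.20 above it (adjusted p = 0.0706) with all 18 libraries, and it also lost this call without PLT1 replicate 1 or 2 or without mock replicate 1, 3 or 4, with an adjusted p of up to 0.123. XTH15 (AT4G14130), a member linked to petiole and hypocotyl growth in shade, stood at 11.49 and 10.60 in PLT1, 10.01 and 10.14 in PLT3, 9.37, 8.64 and 9.49 in PLT4, 10.68, 10.56 and 10.26 in PLT5 and 9.76, 9.80 and 9.32 in PLT7, against 9.82, 9.52, 8.82 and 10.74 in mock. The mock libraries alone spanned most of this range, and mock replicate 4 was the highest of them. PLT1 was 1.32 ± 0.37 above mock (adjusted p = 0.00554), but 0.53 (adjusted p = 0.417) with all 18 libraries, and 0.88 (adjusted p = 0.136) without PLT1 replicate 1. Without mock replicate 4 PLT5 was higher too, by 1.11 (adjusted p = 0.00369), as was the mean of the lines, by 0.69 (adjusted p = 0.0095), against 0.36 (adjusted p = 0.25) with it. PLT1 exceeded PLT4 by 1.88 ± 0.39 (adjusted p = 0.00126, and 0.197 with all 18 libraries).

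XTH24 (AT4G30270), first described as the meristem gene MERI5, was at 10.28 and 10.42 in PLT1 and at 9.23 in the library left out, against 10.25, 10.03, 10.01 and 9.82 in mock. PLT1 was 0.32 ± 0.12 above mock (adjusted p = 0.0382), and the value turned to -0.05 (adjusted p = 0.871) with all 18 libraries. The call also went without any one of mock replicates 2, 3 and 4 and of PLT1 replicates 1 and 2, where the adjusted p lay between 0.0571 and 0.235. XTH2 and XTH29, whose roles are less known, rose in PLT1 by 0.36 (adjusted p = 0.0299) and 0.27 (adjusted p = 0.0122), at values near the background, and lost their calls with all 18 libraries (adjusted p = 0.199 and 0.0607) and without PLT1 replicate 1 for XTH2 (0.453) or PLT1 replicate 2 for XTH29 (0.0953).

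The deepest fall was in XTH17 (AT1G65310), which is expressed mainly in roots. Its values were 3.42 and 3.45 in PLT1, 4.63 and 4.33 in PLT3, 4.62, 4.83 and 4.16 in PLT4, 5.45, 5.89 and 5.45 in PLT5 and 3.29, 3.62 and 3.53 in PLT7, against 7.53, 6.77, 6.65 and 7.24 in mock. All dex libraries were lower than all mock libraries, with PLT1 and PLT7 near the background of the arrays, where falls are compressed, and PLT5 nearest to mock. The mean of the lines fell by 2.74 ± 0.14 on the log2 scale, which is 6.7-fold lower (adjusted p = 4.01e-11). PLT1 minus PLT5 was -2.16 ± 0.23 (adjusted p = 7.51e-07), and PLT1 and PLT7 differed by -0.04 ± 0.23 (adjusted p = 0.93). The library left out stood at 5.19, between the PLT1 libraries and mock.

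XTH6 (AT5G65730) followed with -2.36 ± 0.11, or 5.12-fold lower (adjusted p = 8.85e-12). Its values were 3.91 and 4.27 in PLT1, 5.14 and 5.25 in PLT3, 4.43, 4.61 and 4.36 in PLT4, 5.54, 6.21 and 5.84 in PLT5 and 4.36, 4.43 and 4.62 in PLT7, against 6.88, 7.10, 7.36 and 7.36 in mock. The order was close to that of XTH17, with PLT5 nearest to mock, but PLT4 lay as low as PLT7 (PLT4 minus PLT7 0.00 ± 0.15, adjusted p = 0.999). PLT4 minus PLT5 was -1.39 ± 0.15 (adjusted p = 4.08e-05).

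XTH32, XTH31 and XTH33 belong to the end of the numbering, where XTH31 and XTH32 form the branch with xyloglucan hydrolase activity and XTH33 is predicted to be held in the membrane. XTH32 (AT2G36870) stood at 5.32 and 5.12 in PLT1, 7.14 and 7.22 in PLT3, 6.53, 6.81 and 6.41 in PLT4, 7.49, 7.93 and 7.60 in PLT5 and 5.85, 5.64 and 5.81 in PLT7, against 8.62, 8.52, 8.85 and 8.44 in mock. It was lower in every dex library, by -2.12 ± 0.09 in the mean, or 4.36-fold (adjusted p = 3.37e-12). XTH31 (AT3G44990) stood at 6.90 and 7.02 in PLT1, 9.25 and 9.17 in PLT3, 8.69, 9.10 and 8.59 in PLT4, 9.71, 9.79 and 9.62 in PLT5 and 7.83, 7.68 and 8.06 in PLT7, against 9.79, 9.94, 10.03 and 9.83 in mock. There PLT5 replicate 2 just reached the lowest mock library while the PLT1 libraries lay far below mock, so the mean of -1.39 ± 0.08 (adjusted p = 2.64e-10) joined unlike lines. The changes of XTH31 were -2.94 in PLT1, -0.69 in PLT3, -1.10 in PLT4, -0.19 in PLT5 and -2.04 in PLT7. The change in PLT5 was not called (adjusted p = 0.235), that in PLT3 was not called with all 18 libraries (0.114), and PLT1 minus PLT5 was -2.75 ± 0.13 (adjusted p = 5.71e-11). XTH33 (AT1G10550) stood at 4.73 and 4.46 in PLT1, 5.61 and 5.60 in PLT3, 4.87, 5.26 and 4.79 in PLT4, 6.02, 6.43 and 6.24 in PLT5 and 5.13, 4.77 and 4.45 in PLT7, against 6.87, 7.45, 6.98 and 7.13 in mock. It was lower in every dex library, by -1.87 ± 0.12 in the mean, or 3.66-fold (adjusted p = 6e-10), with PLT5 again nearest to mock.

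XTH22 (AT5G57560), better known as TCH4, is the family member that rises within minutes when a plant is touched. It stood at 6.19 and 6.05 in PLT1, 6.90 and 6.90 in PLT3, 7.27, 7.23 and 7.48 in PLT4, 7.70, 7.56 and 7.64 in PLT5 and 5.36, 5.80 and 5.81 in PLT7, against 8.92, 8.64, 8.37 and 8.54 in mock. All dex libraries were lower, those of PLT7 most, and the mean was -1.89 ± 0.09, or 3.71-fold lower (adjusted p = 1.56e-11). PLT5 exceeded PLT7 by 1.98 ± 0.13 (adjusted p = 7.75e-09). Beside it, 3 of 3 other touch genes fell in the mean of the lines, where 24.2% of all probe sets fell. The calmodulin-like genes TCH2 and TCH3 changed by -1.05 ± 0.08 and -1.23 ± 0.09, and the calmodulin gene CAM2 by -0.61 ± 0.07. The mean log2 value of these 3 genes was 7.80 to 7.88 in PLT1, 8.01 to 8.09 in PLT3, 8.29 to 8.44 in PLT4, 8.31 to 8.36 in PLT5 and 7.63 to 7.71 in PLT7, against 8.91 to 9.12 in mock. The part of handling in the fall of XTH22 was not tested.

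**Figure D3:**
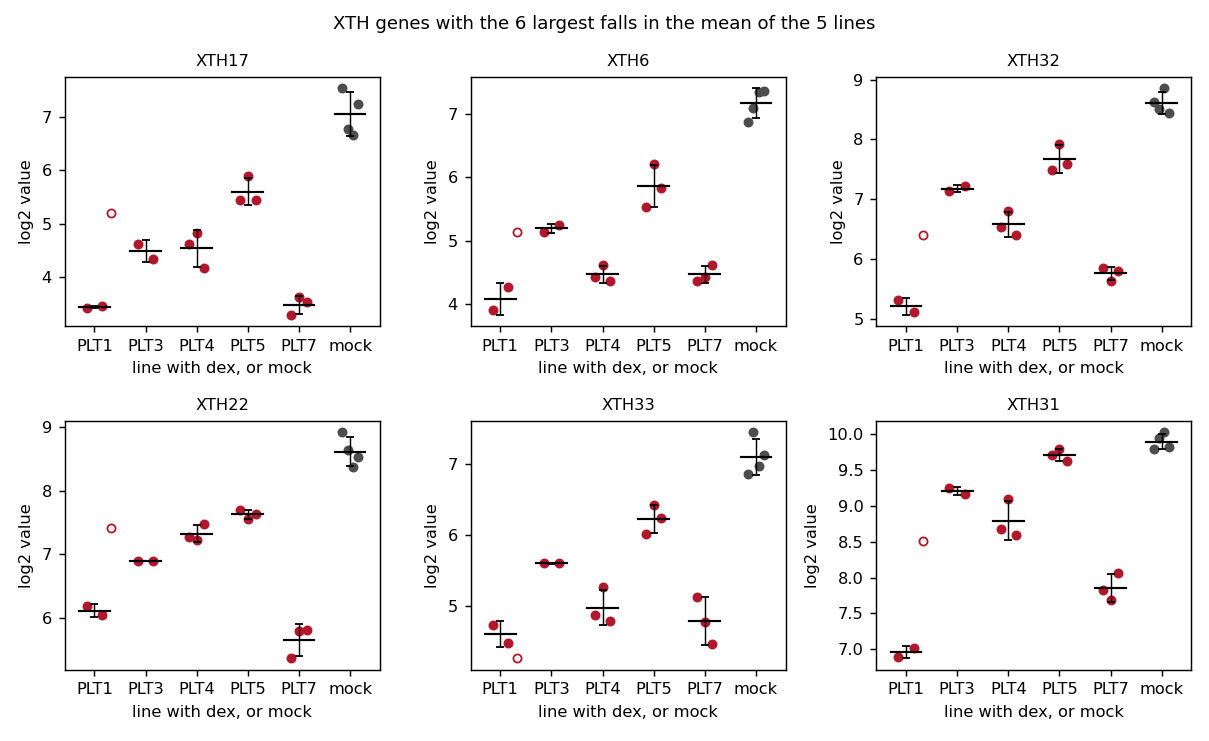
Log2 value of the 6 XTH genes with the largest fall in the mean of the 5 lines, in every library, with the dex-treated lines left and mock right in each panel. Filled points are the libraries used, bars their mean and whiskers the SD, and the open circle is the library labelled PLT1 replicate 3. In XTH17, XTH6, XTH32, XTH22 and XTH33 every dex library lies below every mock library, while in XTH31 the highest PLT5 library reaches the lowest mock library.

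XTH18, XTH19 and XTH20, which with XTH17 are expressed mainly in roots, also fell in the mean, by less than XTH17 in value. XTH18 changed by -1.35 ± 0.12 in the mean (adjusted p = 2.2e-08), with -1.87 in PLT7 and -0.87 in PLT5 at the ends of the range. XTH19 and XTH20, which are also known from the healing of cut stems, changed by -0.88 ± 0.13 (adjusted p = 1.21e-05) and -0.54 ± 0.13 (adjusted p = 0.00221). XTH20 lay near the background, and its change moved with mock replicate 4, which stood at 4.95, against 4.24, 3.87 and 3.96 in the other mock libraries. Without it the change was -0.31 (adjusted p = 0.00476). XTH21, known for a part in primary root growth, was at -0.24 ± 0.10 and not called (adjusted p = 0.0552). It was called without mock replicate 3 (-0.34, adjusted p = 0.00964) or 2 (-0.32, adjusted p = 0.0207) and without PLT5 replicate 2 (-0.27, adjusted p = 0.0284). The trend and robust variance also gave a call (adjusted p = 0.0483). Without mock replicate 4 XTH21 was at -0.13 (adjusted p = 0.301), so its value moved with the mock libraries used.

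XTH14 (AT4G25820), an enzyme of the root and its hairs, stood at 5.74 and 6.02 in PLT1, 6.96 and 7.25 in PLT3, 6.94, 6.75 and 6.58 in PLT4, 7.09, 7.09 and 7.59 in PLT5 and 5.66, 6.29 and 6.50 in PLT7, against 7.54, 7.55, 7.27 and 7.75 in mock. PLT1 and PLT7 were lowest, and PLT5 replicate 3 alone lay within the mock range. The change was -0.90 ± 0.13 in the mean (adjusted p = 1.54e-05), -1.65 in PLT1, -1.38 in PLT7 and -0.77 in PLT4, and it was not called in PLT3 (-0.42, adjusted p = 0.123) or PLT5 (-0.27, adjusted p = 0.287). Without PLT5 replicate 3 and PLT7 replicate 1 together, it was called in PLT3 (-0.42, adjusted p = 0.0288) and PLT5 (-0.44, adjusted p = 0.0312). XTH26, the other member known from root hairs, lay between 3.43 and 3.80 in the 13 dex libraries, against 3.60, 3.63, 3.59 and 3.56 in mock. These values are near the background in every group, and XTH26 was called in no line. XTH12 and XTH13 changed by -0.95 ± 0.11 (adjusted p = 1.58e-06) and -0.54 ± 0.08 (adjusted p = 2.35e-05). The 13 dex libraries lay between 3.51 and 4.10 for XTH13, near the background, and between 3.78 and 4.61 for XTH12. The call of XTH13 in PLT5 (-0.31, adjusted p = 0.0438) was lost with all 18 libraries (0.0576) and without mock replicate 4 (0.106).

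Markers of root hairs moved as well. Of 7 root hair genes, 6 fell in the mean of the lines, where 24.2% of all probe sets fell, among them the wall protein gene PRP3 (-1.31 ± 0.12) and the expansin genes EXPA18 (-0.92 ± 0.12) and EXPA7 (-0.49 ± 0.13). The mean log2 value of the 7 was 3.98 to 4.14 in PLT1, 4.43 to 4.51 in PLT3, 4.37 to 4.55 in PLT4, 4.47 to 4.59 in PLT5 and 4.12 to 4.36 in PLT7, against 4.79 to 4.94 in mock. RHD6, RSL4 and LRX1 lay near the background in every library, mock included. PLT1 and PLT7 were thus lowest both in these markers and in XTH14, and the part of root hairs in the changes of XTH14 was not tested. Of 5 other root genes, 3 rose and 1 fell, where 25.9% of all probe sets rose and 24.2% fell. SCR, a regulator of the endodermis, changed by 0.86 ± 0.06, SHR, its partner from the stele, by 0.77 ± 0.07 and WER, a gene of epidermal cells without hairs, by 0.46 ± 0.08. CASP1, a marker of the differentiated endodermis, changed by -2.40 ± 0.18, and PYK10 was at -0.02 ± 0.05 (adjusted p = 0.772). Endodermis genes thus moved both ways. Of the 5 measured shoot genes of photosynthesis, 5 fell in the mean, where 24.2% of all probe sets fell. Their mean log2 value was 12.98 to 13.30 in the dex libraries, against 13.40 to 13.43 in mock. Of 5 clock genes, CCA1 (-1.64 ± 0.21) and LHY (-0.68 ± 0.27, adjusted p = 0.046, and 0.0698 with all 18 libraries) fell in the mean, and TOC1 (0.42 ± 0.08) and PRR5 (1.05 ± 0.20) rose, where 24.2% of all probe sets fell and 25.9% rose. In PLT7 all 5 were called, 3 higher and 2 lower, against 25.2% and 22.4% of all probe sets. The part of these genes' changes in those of the XTH genes was not tested.

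Other members that fell lay across the family. XTH4 (AT2G06850), also called EXGT-A1, stood at 10.80 and 10.84 in PLT1, 11.90 and 11.91 in PLT3, 11.42, 11.47 and 11.19 in PLT4, 11.91, 12.13 and 12.04 in PLT5 and 10.73, 10.58 and 10.86 in PLT7, against 12.51, 12.66, 12.57 and 12.55 in mock. Each dex library was below mock, PLT7 and PLT1 most, and the mean was -1.20 ± 0.06 (adjusted p = 4.68e-11). XTH30 changed by -1.16 ± 0.08 (adjusted p = 1.26e-09) with all dex libraries below mock, XTH23 by -1.09 ± 0.12 (adjusted p = 7.22e-07) and XTH8 by -0.67 ± 0.07 (adjusted p = 1.57e-07). XTH27, known from tracheary elements of leaf veins, had the smallest fall with -0.41 ± 0.07 (adjusted p = 4.55e-05). Its calls in PLT3 and PLT4 were thin, with an adjusted p of 0.0425 in PLT3 and 0.0172 in PLT4, against 0.165 and 0.0902 with all 18 libraries. It was at -0.19 in PLT5 (adjusted p = 0.124, and 0.012 without mock replicate 4).

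In all, 10 members were not called in the mean. XTH2, XTH3, XTH10, XTH25, XTH26 and XTH29 lay near the background in every group, with mean changes between -0.06 and 0.09. XTH3 is the member that can also act on cellulose. Apart from the PLT1 calls of XTH2 and XTH29, none of these 6 was called against mock in any line in the main fit. XTH25 stood at 4.49 in PLT5 replicate 1, against 3.92 and 3.74 in PLT5 replicates 2 and 3. It was called higher in PLT5 without PLT5 replicate 3 (0.42, adjusted p = 0.018). Counted by brightness, 10 of the 33 had a mean below the 25th percentile of probe set means (a log2 value of 4.02), and 2 of these 10 fell and 1 rose in the mean. Of the 23 brighter members, 17 fell, 3 rose, and XTH11, XTH15 and XTH24 were not called. By position in the family, 4 of 11 fell and 3 rose among XTH1 to XTH11, 10 of 15 fell and 0 rose among XTH12 to XTH26 (limma, also 0 at an unadjusted p under 0.05), and 5 of 7 fell and 1 rose among XTH27 to XTH33. Beside the counts by brightness and by position, 24.2% of all probe sets fell and 25.9% rose in the mean. The shares among dim and brighter probe sets apart were not counted.

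The lines were then set against each other. These differences do not use the mock values, but the mock libraries enter the common error estimate. The F test among the 5 lines called 24 of the 33 members, against 36.7% of all probe sets, and 18 members with all 18 libraries. Among the 19 members that fell in the mean, the largest fall was in PLT1 for 10, in PLT7 for 7, and in PLT3 and PLT4 for 1 each, and the smallest was in PLT5 for 14, in PLT4 for 4 and in PLT3 for 1. Over all probe sets, the share called lower than mock was likewise largest in PLT1 (23%) and PLT7 (22.4%) and smallest in PLT5 (15.1%). PLT1 minus PLT5 had 4 members higher and 15 lower, against 19% and 14.8% of all probe sets. PLT5 minus PLT7 had 15 higher and 1 lower, against 11.6% and 12.2%. PLT3 minus PLT7 had 14 higher and 1 lower, against 8.11% and 7.95%, and PLT4 minus PLT7 had 14 higher and 2 lower, against 9.51% and 8.67%. With all 18 libraries, PLT1 minus PLT5 had 2 higher and 14 lower, and PLT5 minus PLT7 had 15 and 0. PLT3 minus PLT7 then had 11 higher and 1 lower, and PLT4 minus PLT7 had 10 and 2.

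PLT1 minus PLT3 had 5 higher and 12 lower, against 12.6% and 11.3% of all probe sets, and PLT1 minus PLT4 had 4 higher and 12 lower, against 12.4% and 12.1%. PLT1 minus PLT7 had 5 each way, against 8.39% and 7.83%. PLT4 minus PLT5 had 2 higher and 9 lower, against 3.58% and 3.61%. PLT3 minus PLT4 had 5 higher and 1 lower, against 1.75% and 1.83%, and PLT3 minus PLT5 had 0 higher and 3 lower, against 1.12% and 0.952%, with 3 higher at an unadjusted p under 0.05 in limma. The 3 lower in PLT3 than in PLT5 were XTH11, XTH17 and XTH22, and they were not called with all 18 libraries. With all 18, PLT1 minus PLT3 had 0 higher and 9 lower, PLT1 minus PLT4 had 1 and 7, and PLT1 minus PLT7 had 3 and 2. PLT4 minus PLT5 then had 1 higher and 6 lower, PLT3 minus PLT4 had 2 and 0, and PLT3 minus PLT5 had 0 and 0.

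XTH19 (AT4G30290) set PLT7 apart from the other lines. It stood at 7.73 and 8.46 in PLT1, 8.11 and 8.22 in PLT3, 8.46, 8.56 and 8.51 in PLT4, 7.71, 8.41 and 8.21 in PLT5 and 6.70, 6.25 and 6.59 in PLT7, against 8.83, 8.82, 8.50 and 8.88 in mock. The PLT7 libraries were lowest by a wide margin. Those of PLT4 overlapped mock, and those of PLT1, PLT3 and PLT5 lay below it. The changes were -0.66 in PLT1, -0.59 in PLT3, -0.25 in PLT4, -0.65 in PLT5 and -2.24 in PLT7. PLT7 was lower than each of the 4 others, with PLT1 minus PLT7 at 1.58 ± 0.20 (adjusted p = 2.47e-05), PLT3 minus PLT7 at 1.65 ± 0.20 (adjusted p = 1.54e-05), PLT4 minus PLT7 at 1.99 ± 0.18 (adjusted p = 4.21e-07) and PLT5 minus PLT7 at 1.60 ± 0.18 (adjusted p = 3.16e-06). The change in PLT4 was not called (adjusted p = 0.27), and those in PLT1, PLT3 and PLT5 lost their calls without PLT1 replicate 1 (0.28), PLT3 replicate 1 or 2 (0.152 and 0.081) or PLT5 replicate 1 (0.0661).

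XTH16 (AT3G23730) split the lines more sharply. It stood at 7.53 and 7.50 in PLT1, 9.35 and 9.59 in PLT3, 8.88, 8.67 and 8.92 in PLT4, 9.40, 9.46 and 9.36 in PLT5 and 7.87, 7.75 and 7.76 in PLT7, against 9.51, 9.30, 9.54 and 9.23 in mock. PLT1 and PLT7 were low, PLT4 was between, and PLT3 and PLT5 lay within or beside the mock range. PLT1 was -1.88 ± 0.10 from mock (adjusted p = 5.45e-11), PLT7 -1.61 ± 0.09 (adjusted p = 1.28e-10) and PLT4 -0.57 ± 0.09 (adjusted p = 5.48e-05), while PLT3 was at 0.07 ± 0.10 (adjusted p = 0.674) and PLT5 at 0.01 ± 0.09 (adjusted p = 0.962). PLT1 minus PLT3 was -1.96 ± 0.12 (adjusted p = 1.71e-09) and PLT4 minus PLT5 was -0.58 ± 0.10 (adjusted p = 0.00137).

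XTH7 (AT4G37800) stood at 7.85 and 8.02 in PLT1, 9.73 and 9.65 in PLT3, 9.78, 9.69 and 9.68 in PLT4, 9.38, 9.56 and 9.28 in PLT5 and 8.61, 8.63 and 8.68 in PLT7, against 9.93, 10.14, 10.21 and 10.06 in mock. PLT1 was lowest and PLT7 next, and PLT3 and PLT4 lay just under mock. PLT1 minus PLT4 was -1.78 ± 0.10 (adjusted p = 5.06e-10), and PLT1 minus PLT7 was -0.70 ± 0.10 (adjusted p = 7.91e-05, and 0.197 with all 18 libraries). The falls of XTH7 in PLT3 (-0.40, adjusted p = 0.00311) and PLT4 (-0.37, adjusted p = 0.00164) were not called with all 18 libraries (adjusted p = 0.141 and 0.103).

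XTH11 (AT3G48580) was called lower in PLT3 and in none of the 4 other lines. It stood at 4.91 and 5.06 in PLT1, 4.44 and 4.14 in PLT3, 5.25, 5.10 and 5.40 in PLT4, 5.20, 5.43 and 5.31 in PLT5 and 5.67, 5.61 and 5.32 in PLT7, against 5.82, 5.35, 5.45 and 4.68 in mock. Both PLT3 libraries lay below every mock library, and mock replicate 4 was the lowest of mock. PLT3 was -1.04 ± 0.21 from mock (adjusted p = 0.000784), and PLT3 minus PLT7 was -1.24 ± 0.22 (adjusted p = 0.000558), PLT3 minus PLT5 -1.02 ± 0.22 (adjusted p = 0.0182) and PLT3 minus PLT4 -0.96 ± 0.22 (adjusted p = 0.0191). PLT1 minus PLT3 was 0.69 ± 0.24 (adjusted p = 0.0427). With all 18 libraries only the difference from PLT7 was called (adjusted p = 0.0208), PLT1 was lower than mock too (-0.76, adjusted p = 0.0281), and the library left out had the lowest XTH11 value of all, 3.74. Without mock replicate 4, PLT1 (-0.56, adjusted p = 0.00371) and the mean of the lines (-0.47, adjusted p = 0.00097) were lower than mock.

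**Figure D4:**
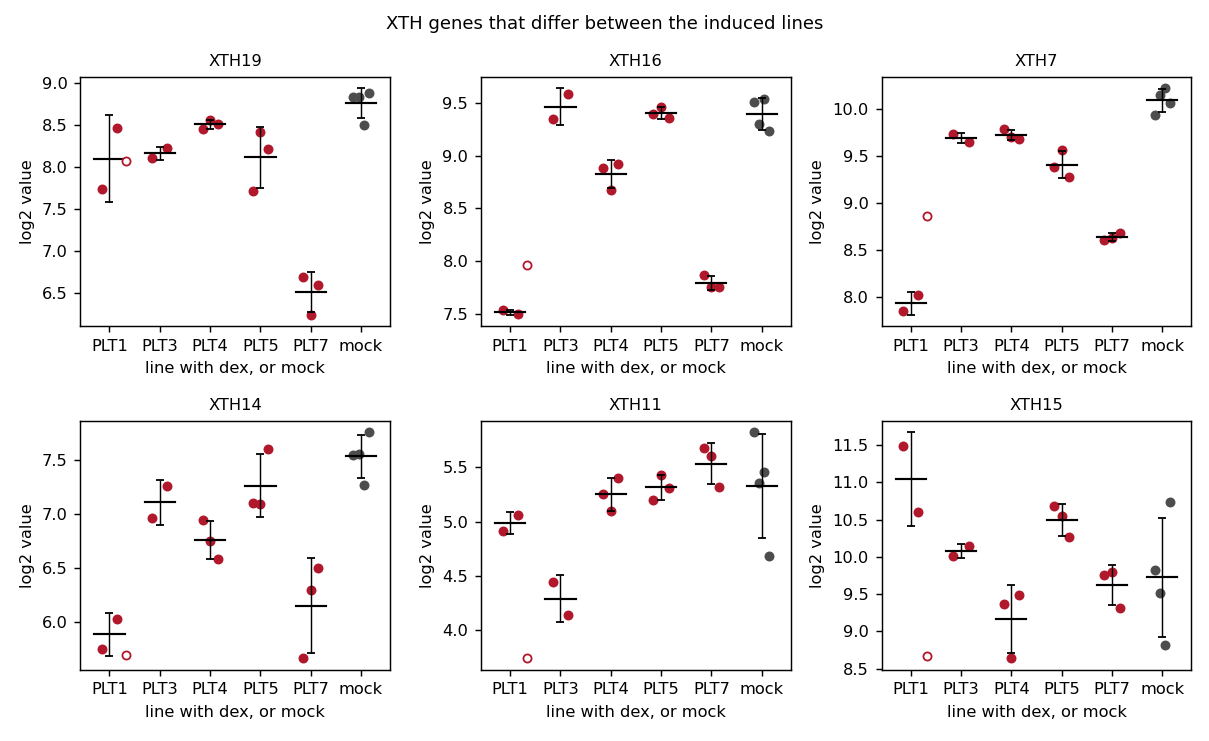
Log2 value of 6 XTH genes that differ between the induced lines, in every library, with the dex-treated lines left and mock right in each panel. Filled points are the libraries used, bars their mean and whiskers the SD, and the open circle is the library labelled PLT1 replicate 3. PLT7 lies lowest in XTH19, PLT1 and PLT7 lie low in XTH16, XTH7 and XTH14, PLT3 lies lowest of the lines used in XTH11, and the open circle lies far from the PLT1 libraries in XTH15.

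Several XTH genes are neighbours in the genome, and neighbours did not always move alike. In the gene order of the TAIR10.1 table, 10 members lie in 4 runs of directly adjacent protein-coding genes. XTH24, XTH18 and XTH19 follow each other on chromosome 4. XTH24 was at -0.04 ± 0.08 in the mean (adjusted p = 0.702), beside -1.35 ± 0.12 for XTH18 and -0.88 ± 0.13 for XTH19. In PLT7 the 3 changed by -0.19 (adjusted p = 0.183), -1.87 and -2.24, and in PLT4 by -0.16 (adjusted p = 0.292), -1.13 and -0.25 (adjusted p = 0.27). On chromosome 5, XTH13, XTH25 and XTH22 are adjacent. XTH25 was at 0.09 ± 0.09 (adjusted p = 0.473), beside -0.54 ± 0.08 for XTH13 and -1.89 ± 0.09 for XTH22. The values of XTH25 lay near the background, apart from 4.49 in PLT5 replicate 1. Those of XTH13 did so in the dex libraries. XTH23 and XTH14, adjacent on chromosome 4, fell by 1.09 and 0.90. XTH1 and XTH2, the last run, were both near the background.

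The library labelled PLT1 replicate 3 was set beside the others for the family. Of the 19 members lower in PLT1, it lay below all mock libraries in 18. In 12 of these 18 it lay above both PLT1 libraries, that is, nearer to mock. In 5 of the 19 it lay below both PLT1 libraries, that is, further from mock. Of the 7 members higher in PLT1, it lay above all mock libraries in 2, XTH9 (11.82) and XTH28 (9.68).

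The genes that make and trim xyloglucan give the setting of these enzymes. Of 14 genes of xyloglucan synthesis, all measured, 11 fell and 1 rose in the mean of the lines, and the median change was -0.36, where 24.2% of all probe sets fell and 25.9% rose. CSLC4, which makes the glucan backbone in most tissues, stood at 5.43 and 5.25 in PLT1, 7.53 and 7.64 in PLT3, 7.42, 7.52 and 7.39 in PLT4, 7.68, 8.22 and 8.23 in PLT5 and 6.47, 6.06 and 6.13 in PLT7, against 9.25, 9.16, 9.13 and 9.15 in mock. All dex libraries were lower, PLT1 most and PLT5 least, and the mean was -2.25 ± 0.09, or 4.75-fold (adjusted p = 1.6e-12). The galactosyltransferase gene XLT2 changed by -1.01 ± 0.06 (adjusted p = 3.09e-10), and the xylosyltransferase genes XXT5 and XXT1 changed by -0.80 ± 0.05 (adjusted p = 2.14e-10) and -0.58 ± 0.07 (adjusted p = 2.58e-06). The 1 riser was CSLC12, a paralogue of CSLC4 chosen here after its values were seen, with 0.46 ± 0.09 (adjusted p = 0.000201). With all 18 libraries it was not called (0.37, adjusted p = 0.11), and the library left out stood at 4.77, against 6.16 and 6.10 in PLT1 replicates 1 and 2. CSLC5, another paralogue chosen after its values were seen, was higher than mock in PLT1 (0.19, adjusted p = 0.0431) and PLT7 (0.18, adjusted p = 0.0294) and lower in PLT3 (-0.43), PLT4 (-0.38) and PLT5 (-0.31). By line, 10 of the 14 genes fell and 2 rose in PLT1 (1 rose with all 18 libraries), where 23% and 27.8% of all probe sets did. In PLT3, 7 fell and 1 rose (CSLC12, not called with all 18 libraries), against 15.7% and 15.9%, and in PLT7, 10 fell and 2 rose, against 22.4% and 25.2%. In PLT4, 9 fell, against 19%, and in PLT5, 7 fell (6 with all 18 libraries), against 15.1%.

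Genes of xyloglucan breakdown moved the other way for the most part. Of the 4 measured, 3 rose, where 25.9% of all probe sets rose, and AXY8, a fucosidase gene, fell (-0.37 ± 0.06, adjusted p = 1.67e-05). XYL1, the alpha-xylosidase that removes xylose from xyloglucan chains, stood at 11.46 and 11.07 in PLT1, 10.79 and 10.71 in PLT3, 10.68, 10.57 and 10.66 in PLT4, 10.14, 10.01 and 10.00 in PLT5 and 11.05, 11.10 and 10.97 in PLT7, against 9.31, 9.19, 9.06 and 9.47 in mock. Every dex library lay above every mock library, with PLT5 nearest to mock, and the mean was 1.49 ± 0.07, or 2.81-fold (adjusted p = 2.14e-11). BGAL10, the beta-galactosidase, stood at 8.58 and 8.58 in PLT1, 8.94 and 8.93 in PLT3, 8.75, 8.79 and 8.62 in PLT4, 8.52, 8.53 and 8.64 in PLT5 and 9.08, 9.17 and 9.31 in PLT7, against 7.69, 7.25, 7.22 and 7.91 in mock. It was higher in every dex library, PLT7 most, by 1.28 ± 0.10 in the mean, or 2.43-fold (adjusted p = 4.28e-09). BGLC1, a glucosidase gene, was at 0.20 ± 0.06 (adjusted p = 0.0122), with overlapping libraries, and it lost its call without mock replicate 2 (0.14, adjusted p = 0.0802). These 18 genes were chosen with earlier results of the series known, and the 5 comparisons share the mock libraries.

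**Figure D5:**
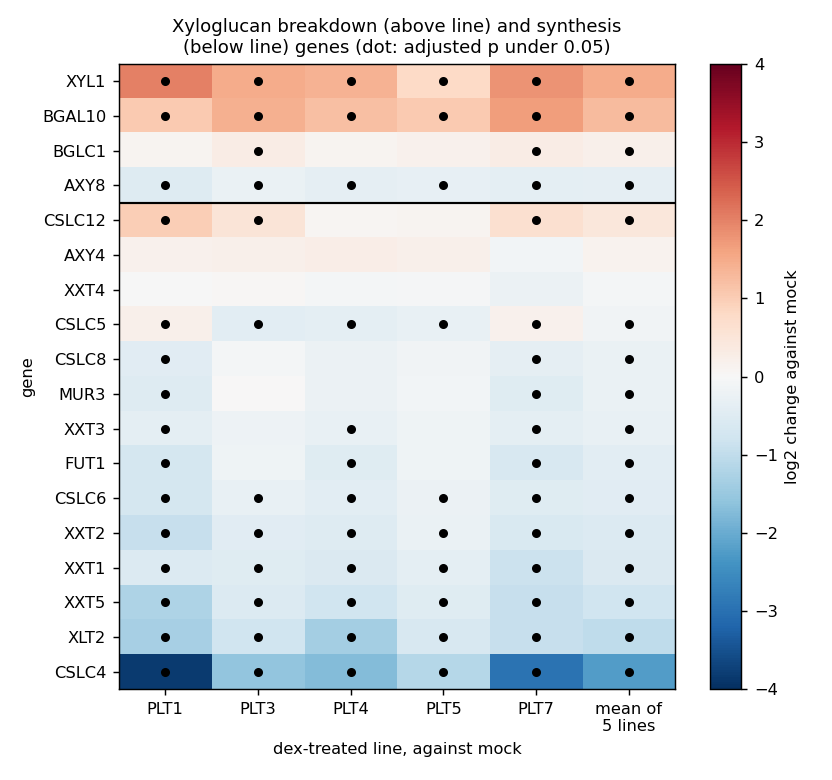
Log2 change of 4 genes of xyloglucan breakdown (above the line) and 14 of its synthesis (below the line) in the 5 dex-treated lines and in their mean, each against mock, from the fit of 17 libraries. Red is higher and blue lower than mock, and a black dot marks an adjusted p under 0.05. XYL1 and BGAL10 are red and CSLC4, XLT2, XXT5 and XXT1 blue with a dot in every column.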

How the data were processed

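RNA from whole seedlings was hybridised to 18 single-colour arrays, which were put in groups by title. The values deposited by the authors are on the log2 scale. The tools RMA and limma 3.24.15 are named in the submitters' processing notes without saying what each did. RMA corrects background, normalises arrays to each other and summarises probes, which compresses differences between weak signals (log2 values near 3 or 4), and it removes a shift shared by most genes. The table has no detection calls. Coordinates are left out because no genome build is named. The table has 64 control probe sets, used for the actin check alone, and 21430 others. The TAIR10.1 gene table held 21231 of their loci and gave names and gene order.

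The 17 libraries other than the one labelled PLT1 replicate 3 entered 1 limma fit (limma 3.58.1, R 4.3.3) with a coefficient per group and no covariate. Moderated two-sided tests were adjusted by Benjamini-Hochberg over all probe sets for each contrast, at 0.05. The mean contrast weights the 5 lines equally. No gene list was given a test of its own. The fit was tested on simulated data.

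The members, the gene lists and the tests were chosen with earlier results of these data known. Every XTH gene is named. Library values are given for the 6 largest falls, for members called higher in the mean and for some of those that differ between lines. For XTH1 the dex libraries are given as a range. Up to 4 called genes of each pathway list, those with the largest change, are named. CSLC12 and CSLC5 were added after their values were seen. Alternatives were all 18 libraries, each library left out, PLT5 replicate 3 and PLT7 replicate 1 left out together (which show a signal of a PLT gene other than their own), fits on the compared groups, the replicate number as a block, trend and robust variance, array weights, median centring, quantile normalisation, and probe sets below the median left out. Their per-gene values for the pathway genes were added after the data were seen. A separate PLT2 experiment named in the labels was not analysed here.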

Additional observations from a re-analysis of the deposited data

Results flagged for a closer look

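The library labelled PLT1 replicate 3 had the PLT2 probe set at 10.28, far above the 3.67 to 6.07 of the 17 others, although no PLT2 line is among the groups. Among the mock values of the 33 members, XTH19 had 1 library that stood apart from its group, mock replicate 3 with 8.50, against 8.82 to 8.88 in the other mock libraries. The limit is that of Dixon's test, which by its definition chance passes in about 1 in 20 groups.

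The other entries are differences between lines called by the pairwise tests, for the 24 members that the F test called, each with its largest difference. PLT1 minus PLT5 was -2.75 for XTH31, -2.45 for XTH32, -2.16 for XTH17, -1.77 for XTH6, -1.63 for XTH33, -1.37 for XTH14, -0.95 for XTH30 and 0.59 for XTH9. PLT1 minus PLT3 was -1.96 for XTH16. PLT1 minus PLT4 was -1.78 for XTH7, 1.88 for XTH15 and 0.41 for XTH29. PLT1 minus PLT7 was 0.85 for XTH28 and 0.51 for XTH24. With all 18 libraries the differences of XTH15 (adjusted p = 0.197), XTH24 (adjusted p = 0.769) and XTH23 (adjusted p = 0.0911) were not called in limma, and the 21 others were.

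PLT5 minus PLT7 was 1.98 for XTH22, 1.31 for XTH4, 1.00 for XTH18, 0.52 for XTH27 and 0.41 for XTH13. PLT4 minus PLT7 was 1.99 for XTH19 and 0.61 for XTH23. PLT3 minus PLT4 was 0.86 for XTH5, PLT3 minus PLT7 was -1.24 for XTH11, and PLT4 minus PLT5 was -0.62 for XTH8.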

How the results depend on the processing

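Over 26 settings and the 33 members in the comparisons with mock, 4891 of 5013 results kept their side of the threshold, 90 lost a call, 31 gained one and 1 reversed, XTH24 in PLT1, at -0.049 with all 18 libraries. Among those 4891, 67 values called in neither fit changed sign, none above 0.23 in size. The count of members higher in PLT1, 7 of 33, moved to 2 with all 18 libraries, 3 in the fit on the compared groups, 4 under the replicate block and 4 with array weights. It was 3 to 7 with each library left out (3 without PLT1 replicate 1, and 4 without PLT1 replicate 2 or without mock replicate 3). With probe sets below the median left out, fewer members were tested, and all 96 of their results kept their side of the threshold. Smaller counts under this setting thus stand for members that were not tested. In PLT1 4 were higher (XTH1, XTH2 and XTH29 were not tested). The counts of lower members were 12 in PLT1, 10 in PLT3, 11 in PLT4, 8 in PLT5, 12 in PLT7 and 12 in the mean. In the mean 2 were higher (XTH1 and XTH5 were not tested), and 0 genes of xyloglucan synthesis were higher in limma, where CSLC12 was not tested. With all 18 libraries CSLC12 was tested and not called, so the count of 1 for that list became 0. It was 1 to 2 with each library left out (2 without mock replicate 3). The lower counts with each library left out were 18 to 20 in PLT1, 14 to 18 in PLT3, 16 to 19 in PLT4, 12 to 14 in PLT5, 19 to 20 in PLT7 and 19 to 20 in the mean, and the F test called 21 to 25. The weakest calls were XTH27 in PLT3, lost in 17 settings, and XTH13 in PLT5, lost in 15. Where a cause of these shifts is not given, the cause was not tested.

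Same-numbered libraries of different groups did not deviate together on average (mean correlation -0.006 over 36 pairs, -0.16 to 0.24), and 4 of the 36 pairs were over 0.1. Of 17 libraries, 4 correlated best with a library of their own number. Whether a number marks libraries handled together in some groups was not tested. With the replicate block, 20 members were lower in PLT1, 17 in PLT3, 17 in PLT4, 14 in PLT5, 19 in PLT7 and 20 in the mean, and mock replicate 4, alone in its block, added nothing. The fit on the compared groups gives no value for the mean of the lines. Signal limits the 10 members near the background.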
